A study of Mus musculus with 15 samples.

Results

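Epithelial and mesenchymal identity genes were followed in a pair of mouse cell lines, 3134 and AtT-20, before and during treatment with dexamethasone. The set is a list of 40 genes, 22 of them epithelial and 18 mesenchymal, out of 15025 genes with a value on the arrays. Of the 40 genes, 38 had a value from at least 3 probesets, and 25 of these (11 epithelial, 14 mesenchymal) reached the low-value limit in at least 1 group and were tested. A further 13 genes stayed below that limit in every group. Cldn4 had 2 probesets, and Dsp had none under its name. The limit is the 40th percentile of all values, log2 6.59. All levels below are log2 levels after quantile normalization of the 15 arrays, taken as the median over the probesets of a gene. Quantile normalization gives every array the same distribution of values, so levels are relative to the other genes on the array.

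The line 3134 was obtained by transforming C127 cells, which came from a mammary adenocarcinoma of an RIII mouse. AtT-20 cells are mouse pituitary corticotrophs, the cells that make ACTH, from the strain LAF1. Both lines were kept for 48 h in 10% charcoal-dextran-treated serum, which is low in steroids, and then received 100 nM dexamethasone, a synthetic glucocorticoid, for 2, 4 or 8 h. The 0 h group received no hormone, and the labels call it untreated in one place and vehicle treated in another, with no untreated group matched to the later times. Each group holds 2 arrays except AtT-20 at 8 h, which holds 1. Nothing in the labels says that the 2 arrays of a group came from separate cultures. The p-values therefore reflect the spread among these arrays alone, and that spread may be technical.

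Epithelial cells hold together through cadherins, claudins, occludin and desmosomes, and their intermediate filaments are keratins. Mesenchymal cells replace keratins with vimentin, lay down a fibronectin-rich matrix and carry receptors for platelet-derived growth factor. The transcription factors of the ZEB, SNAIL and TWIST families repress epithelial genes, and the splicing factors Esrp1 and Esrp2 set the epithelial form of many transcripts. Pituitary endocrine cells are epithelial in origin, as are the luminal and basal cells of the mammary gland.

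The lines were first set against the markers of their labels. All 6 corticotroph markers with a value were at or above the limit in AtT-20 and below it in 3134. They include Pomc, the precursor of ACTH, at 12.98 to 13.50 over the 7 AtT-20 arrays and 4.26 to 5.42 over the 8 arrays of 3134. Of 12 mammary markers with a value, 3 reached the limit in 3134 at 0 h, and all 3 were higher there than in AtT-20 by limma. These were the luminal transcription factor Gata3 (8.42 against 5.61), the estrogen receptor Esr1 (7.33 against 5.76) and the integrin Itga6 (9.83 against 8.67). The milk protein gene Csn2 (3.54 to 4.97), the alveolar factor Elf5 (4.29 to 4.67) and the basal factor Trp63 (5.45 to 6.36) were below the limit on all 8 arrays of 3134. The mean level of the 12 mammary markers was 5.60 to 5.78 over the arrays of 3134 and 4.87 to 5.17 over those of AtT-20. Among markers of other cell types, 1 of 6 immune genes (Cd68) and 1 of 5 endothelial genes (Cdh5) reached the limit in 3134 at 0 h. None did in AtT-20 at 0 h, while over all times the immune gene Cd79a reached it on 2 of the 7 AtT-20 arrays (5.87 to 7.14). The mean of the immune markers was 4.92 to 5.10 in 3134 and 4.91 to 5.10 in AtT-20, that of the endothelial markers 4.42 to 4.56 and 4.19 to 4.48. Their part in the results was not tested.

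Promoters are shown first, because the listed factors of the ZEB and SNAIL families bind a known DNA word, the E-box CAGGTG. In AtT-20 at 0 h, 10 epithelial genes were higher, as given below. The windows run from 250 bases before to 50 bases after the start of a gene, from RefSeq with the build GRCm38.p6, and 27 of the 40 genes were in that table. Cdh1, Esrp1 and St14 were not among them. CAGGTG was searched on both strands, so CACCTG counts as well, and both are in capitals below. No other motif was searched.
Spint2: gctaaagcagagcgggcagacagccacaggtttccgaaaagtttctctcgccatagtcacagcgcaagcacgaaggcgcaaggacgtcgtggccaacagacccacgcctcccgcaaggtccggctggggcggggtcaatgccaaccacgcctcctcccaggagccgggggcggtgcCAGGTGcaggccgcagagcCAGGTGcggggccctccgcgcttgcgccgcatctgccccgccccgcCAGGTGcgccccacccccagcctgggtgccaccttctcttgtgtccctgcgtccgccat
Krt8: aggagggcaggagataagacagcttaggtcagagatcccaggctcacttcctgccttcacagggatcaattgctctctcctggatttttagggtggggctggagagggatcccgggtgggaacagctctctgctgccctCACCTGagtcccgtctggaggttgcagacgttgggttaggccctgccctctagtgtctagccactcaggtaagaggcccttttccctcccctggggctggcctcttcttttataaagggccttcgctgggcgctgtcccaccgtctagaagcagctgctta
Krt18: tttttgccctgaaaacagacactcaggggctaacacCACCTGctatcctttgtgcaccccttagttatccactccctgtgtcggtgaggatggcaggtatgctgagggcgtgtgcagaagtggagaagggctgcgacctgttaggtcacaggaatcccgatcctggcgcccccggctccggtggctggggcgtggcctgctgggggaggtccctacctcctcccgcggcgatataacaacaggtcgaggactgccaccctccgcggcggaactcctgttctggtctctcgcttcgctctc
Epcam: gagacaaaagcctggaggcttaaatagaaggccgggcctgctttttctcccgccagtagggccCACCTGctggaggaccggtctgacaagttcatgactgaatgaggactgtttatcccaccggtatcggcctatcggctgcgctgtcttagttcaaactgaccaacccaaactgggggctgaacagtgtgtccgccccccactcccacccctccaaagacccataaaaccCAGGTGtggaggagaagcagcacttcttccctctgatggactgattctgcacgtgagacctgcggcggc
Krt14: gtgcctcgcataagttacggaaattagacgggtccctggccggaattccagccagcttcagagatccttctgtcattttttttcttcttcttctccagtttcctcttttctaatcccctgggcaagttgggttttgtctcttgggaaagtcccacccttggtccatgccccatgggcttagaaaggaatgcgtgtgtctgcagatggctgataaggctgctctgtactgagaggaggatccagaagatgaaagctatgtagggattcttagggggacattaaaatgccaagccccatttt
Vim: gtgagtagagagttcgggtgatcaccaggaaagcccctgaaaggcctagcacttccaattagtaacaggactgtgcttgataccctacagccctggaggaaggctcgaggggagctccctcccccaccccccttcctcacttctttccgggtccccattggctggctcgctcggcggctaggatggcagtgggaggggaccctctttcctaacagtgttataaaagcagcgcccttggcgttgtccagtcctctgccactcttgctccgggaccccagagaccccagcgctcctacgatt
Each sequence is written 5′ to 3′ on the strand of its gene, at chr7:29281928-29282227 (minus strand) for Spint2, chr15:102004293-102004592 (minus strand) for Krt8, chr15:102027966-102028265 (plus strand) for Krt18, chr17:87635729-87636028 (plus strand) for Epcam, chr11:100205981-100206280 (minus strand) for Krt14 and chr2:13574061-13574360 (plus strand) for Vim. The windows of Spint2, Krt8 and Krt18 are those of epithelial genes that were high in AtT-20 and low in 3134. Epcam was below the limit in both lines, Krt14 was the epithelial gene higher in 3134, and Vim is a mesenchymal gene. The word occurred in at least 1 window of 13 of 16 epithelial genes (81.2%) and of 3 of 11 mesenchymal genes (27.3%), beside 6098 of all 27025 genes in the table (22.6%). Counted by window, it was in 15 of 19 epithelial, 3 of 15 mesenchymal and 6640 of 32851 windows. The epithelial count covers all listed genes, whether or not they differed between the lines. Of the 13 with the word, Krt7, Krt8, Krt18, Cldn3, Ocln, Tjp3, Elf3 and Spint2 were higher in AtT-20. The others, Epcam, Krt5, Cldn4, Cldn7 and Dsp, were not tested for a line difference. Spint2 has it 3 times, Epcam 2 times, Krt8 and Krt18 once each, and Krt14 and Vim have none. The mesenchymal windows that hold it are those of Snai1, Spp1 and Sparc. A match describes these letters only and is not a bound site. Base composition was not matched between the groups of windows.

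At 0 h most tested epithelial genes were higher in AtT-20, and most tested mesenchymal genes were higher in 3134. Another 9 epithelial and 4 mesenchymal genes with a value were below the limit in every group. In AtT-20, 10 epithelial genes were higher: the keratins Krt7, Krt8 and Krt18, the junction genes Cldn3, Ocln and Tjp3, the regulators Esrp1 and Elf3, and the serine protease system genes St14 and Spint2. In 3134, 10 mesenchymal genes were higher, together with 1 epithelial gene, Krt14. Cdh2, Zeb1, Snai2 and Twist1 were measured well above the limit in both lines and did not pass. Thus 21 of the 25 tested genes passed (limma, adjusted p under 0.05 over all 9919 genes tested), beside 54.5% of all tested genes in either direction. By direction, 24.3% of all tested genes were higher and 30.3% lower in 3134. Of the 25, only Krt8, Cdh2, Zeb1, Snai2 and Twist1 reached the limit in both lines at 0 h, and of these Krt8 alone passed. The rest entered the test through the line where they were high. Their passing was thus largely set in advance, and the share that passed cannot be read against that of all genes. The same applies to most genes in the line comparisons below. Within each line, the serial numbers tell an earlier from a later array at 0 h. The earlier arrays of the lines were set against each other, as were the later ones. All 21 showed the same direction in both pairs, and so did the 4 that did not pass. These are the arrays of the test itself, so this is no separate support. The labels do not say that a run spans both lines.

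Over all genes of the list with a value, tested or not, the median difference of 3134 minus AtT-20 at 0 h was −0.61 for the 20 epithelial genes (7 higher, 13 lower). For the 18 mesenchymal genes it was 2.01 (17 higher, 1 lower), and over all 15025 genes −0.04. These counts and medians include the 9 epithelial and 4 mesenchymal genes below the limit in both lines, whose levels cannot be ordered. Of the epithelial genes counted as higher, only Krt14 reached the limit. The levels over all arrays, plotted by gene, give the same picture at every time. The mean level of the 20 epithelial genes was 5.12 to 5.47 over the arrays of 3134 and 6.85 to 7.13 over those of AtT-20. That of the 18 mesenchymal genes was 8.85 to 9.13 and 5.71 to 6.10.

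**Figure D1:**
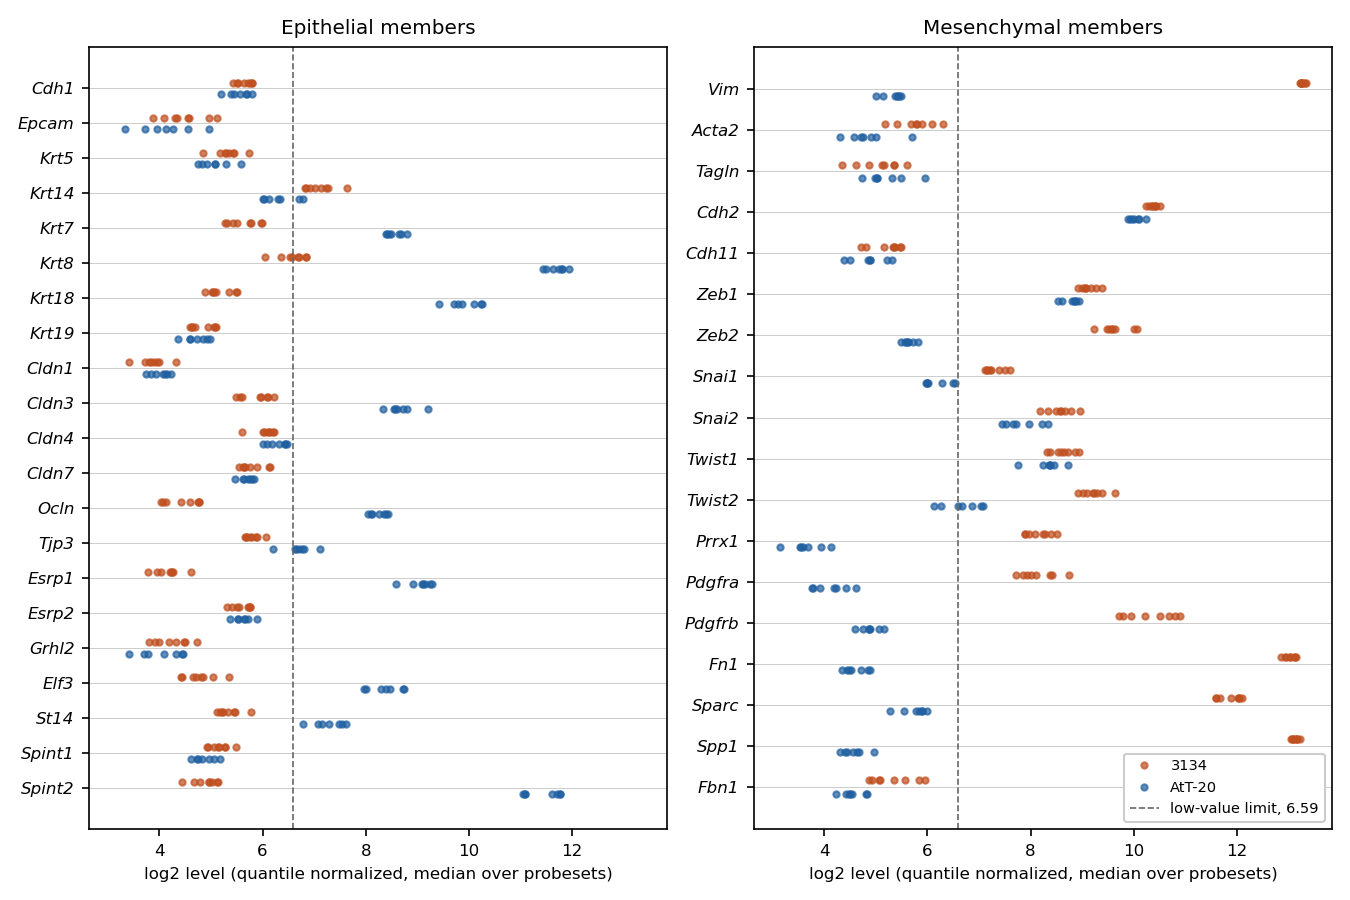
Log2 level (horizontal axis, quantile normalized, median over probesets) of each epithelial gene (left) and mesenchymal gene (right) with a value, where a point is 1 array of 3134 (orange) or AtT-20 (blue) at any time, and the dashed line is the low-value limit of 6.59; Cldn4 rests on 2 probesets. Krt18, Esrp1 and Spint2 lie above the limit only in AtT-20, Vim, Fn1 and Spp1 only in 3134, and Cdh2, Zeb1, Snai2 and Twist1 in both.

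The simple-epithelium keratins Krt8 and Krt18, which pair to form a filament, were both far higher in AtT-20. Krt8 read 11.93 and 11.44 on the 2 AtT-20 arrays at 0 h and 6.84 and 6.70 on those of 3134. The level of Krt8 in 3134 thus sat close to the limit, which 4 of its 8 arrays reached, and the difference was 30.2-fold (log2 −4.91 ± 0.242, SE, limma adjusted p = 6.59e-09). Krt18 read 10.23 and 9.70 in AtT-20 and 4.89 and 5.02 in 3134, below the limit on all 8 arrays there. Because a level below the limit gives only a bound, Krt18 was at least 10.4-fold higher in AtT-20, the limit standing in for the dim line (log2 −5.01 ± 0.233, limma adjusted p = 4.07e-09). The same kind of bound is used for every "at least" below. Every probeset of both genes, 13 of Krt8 and 7 of Krt18, was higher in AtT-20.

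Krt7, a keratin of simple and glandular epithelia, read 8.42 and 8.45 in AtT-20 and 5.76 and 5.27 in 3134 and was at least 3.59-fold higher in AtT-20 (limma adjusted p = 2.34e-07). Krt14, the basal-cell keratin, went the other way. It read 7.22 and 6.83 in 3134 and 6.13 and 6.01 in AtT-20 at 0 h, at least 1.35-fold higher in 3134 (log2 0.96 ± 0.207, limma adjusted p = 0.00195). Over all times the arrays of the lines did not overlap for Krt14, at 6.83 to 7.64 against 6.01 to 6.79, and 2 of the 7 AtT-20 arrays reached the limit. Its basal partner Krt5 stayed below the limit on all arrays of both lines (4.84 to 5.74 and 4.75 to 5.59), as did Krt19 (4.59 to 5.10 and 4.36 to 4.98).

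Of the tight-junction genes on the list, Ocln, Cldn3 and Tjp3 reached the limit, and only in AtT-20. Being tested thus already meant being higher there. Ocln, which encodes occludin, read 8.35 and 8.04 in AtT-20 and 4.42 and 4.59 in 3134, at least 3.04-fold higher (log2 −3.69 ± 0.296, limma adjusted p = 4.65e-07). Cldn3, a barrier-forming claudin, read 8.80 and 8.56 against 6.10 and 5.61 and was at least 4.26-fold higher in AtT-20 (limma adjusted p = 5.96e-07). Tjp3, a scaffold under the junction, was closer to the limit in AtT-20, at 6.65 and 6.76 against 5.69 and 5.76 in 3134. Its difference, at least 1.08-fold, was the smallest of the epithelial genes higher in AtT-20 (log2 −0.97 ± 0.195, limma adjusted p = 0.00113). The other claudins were below the limit on every array: Cldn1 at 3.41 to 4.32 in 3134 and 3.74 to 4.22 in AtT-20, Cldn7 at 5.55 to 6.15 and 5.47 to 5.84, and Cldn4, from its 2 probesets, at 5.60 to 6.23 and 6.01 to 6.47.

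Esrp1, the splicing regulator, and the transcription factor Elf3 were below the limit in 3134 at all times. Esrp1, listed on the array under its older name Rbm35a, read 9.15 and 8.59 in AtT-20 and 3.78 and 4.24 in 3134. All 17 probesets of Esrp1 were at or above the limit in AtT-20 and none in 3134, and the gene was at least 4.86-fold higher in AtT-20 (log2 −4.86 ± 0.25, limma adjusted p = 9.29e-09). Its relative Esrp2 (Rbm35b) stayed below the limit in both lines, at 5.31 to 5.75 and 5.37 to 5.89. Elf3, an ETS factor of epithelial cells, read 8.73 and 8.01 in AtT-20 and 4.41 and 4.71 in 3134, at least 3.43-fold higher in AtT-20 (limma adjusted p = 1.17e-07). Grhl2, a grainyhead factor that maintains epithelial junction genes, was below the limit on every array (3.79 to 4.72 in 3134, 3.41 to 4.45 in AtT-20).

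Spint2, a membrane-bound inhibitor of serine proteases, showed the largest computed log2 difference among the tested epithelial genes. It read 11.70 and 11.04 in AtT-20 against 4.79 and 5.02 in 3134, at least 27.5-fold higher (log2 −6.46 ± 0.317, limma adjusted p = 6.36e-09). That bound lies under the 30.2-fold of Krt8, which reached the limit in both lines, so the order of these genes is not settled. St14, which encodes matriptase, a protease held in check by Spint1 and Spint2, read 7.62 and 7.29 in AtT-20 and 5.17 and 5.45 in 3134, at least 1.82-fold higher in AtT-20 (limma adjusted p = 1.6e-05). The second inhibitor, Spint1, stayed below the limit on all arrays (4.92 to 5.48 and 4.61 to 5.17).

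The classic surface markers of epithelium were low in both lines. Cdh1, which encodes E-cadherin, read 5.80 and 5.65 in 3134 and 5.38 and 5.69 in AtT-20 at 0 h. Only 4 of its 18 probesets reached the limit in each line, and no array at any time did so for the gene (5.43 to 5.80 and 5.19 to 5.80). Epcam, an adhesion molecule of most epithelia, read 4.09 and 4.56 in 3134 and 3.95 and 3.33 in AtT-20. With genes below the limit added to the test, neither gene passed at 0 h (log2 0.20 ± 0.19 for Cdh1, limma adjusted p = 0.491, and 0.68 ± 0.456 for Epcam, limma adjusted p = 0.294). A level below the limit does not show that a transcript was absent.

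On the mesenchymal side, matrix genes and vimentin had the largest differences. Vim, the intermediate filament of mesenchymal cells, read 13.21 and 13.23 in 3134 and 5.13 and 5.41 in AtT-20, at least 99.1-fold higher in 3134 (log2 7.95 ± 0.146, limma adjusted p = 7.3e-12). Fn1, fibronectin, read 13.11 and 13.13 against 4.48 and 4.88 and was at least 92.1-fold higher (log2 8.44 ± 0.197, limma adjusted p = 4.62e-11). All 54 probesets of Fn1 reached the limit in 3134 and 3 did in AtT-20. Spp1, the secreted phosphoprotein osteopontin, read 13.21 and 13.16 against 4.41 and 4.97, at least 96.7-fold higher (log2 8.50 ± 0.185, limma adjusted p = 3.07e-11). Sparc, a collagen-binding matrix protein, read 12.01 and 11.67 against 5.89 on both AtT-20 arrays, at least 38-fold higher (limma adjusted p = 6.52e-10). For these 4 genes no array of one line came near those of the other at any time.

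Both receptors for platelet-derived growth factor were above the limit in 3134 alone. Pdgfrb read 10.89 and 10.80 in 3134 and 5.15 and 4.87 in AtT-20, at least 19.1-fold higher (log2 5.84 ± 0.189, limma adjusted p = 3.11e-10). Pdgfra read 7.85 and 8.11 against 3.79 and 4.23, at least 2.62-fold higher (log2 3.97 ± 0.338, limma adjusted p = 8e-07). None of the 27 probesets of Pdgfra reached the limit in AtT-20, and 23 did in 3134.

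The mesenchymal transcription factors split into those measured in 3134 alone and those measured in both lines. Zeb2 read 10.07 and 9.58 in 3134 and 5.57 and 5.72 in AtT-20, at least 9.4-fold higher (log2 4.18 ± 0.212, limma adjusted p = 8.37e-09). Prrx1, a homeobox factor of limb and craniofacial mesenchyme, read 8.28 and 8.52 against 3.54 and 4.14, at least 3.51-fold higher (limma adjusted p = 3.85e-09). Twist2 read 9.38 and 9.29 in 3134 and 6.27 and 6.87 in AtT-20, where 4 of the 7 arrays reached the limit, and it was at least 6.7-fold higher in 3134 (limma adjusted p = 8.21e-06). Snai1 read 7.22 and 7.51 against 6.50 and 6.28, at least 1.71-fold higher (log2 0.98 ± 0.221, limma adjusted p = 0.00256).

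Zeb1, the close relative of Zeb2, read 9.17 and 9.06 in 3134 and 8.93 and 8.60 in AtT-20, a log2 difference of 0.35 with a 95% interval of −0.04 to 0.75 (limma adjusted p = 0.117, and 0.0396 with the run as a block). Snai2 read 8.59 and 8.57 against 7.52 and 8.34, a difference of 0.65 with an interval of −0.03 to 1.32 (limma adjusted p = 0.0978, and 0.00645 with the block). Twist1 read 8.64 and 8.85 against 8.45 and 8.24 (0.40, interval −0.16 to 0.96, limma adjusted p = 0.207). Cdh2, which encodes N-cadherin, read 10.30 and 10.24 against 10.23 and 10.00, a difference of 0.15 with an interval of −0.17 to 0.47 (limma adjusted p = 0.41). With the run as a block, 23 of the 25 tested genes passed, beside 66.8% of all tested genes, and the added ones were Zeb1 and Snai2.

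**Figure D2:**
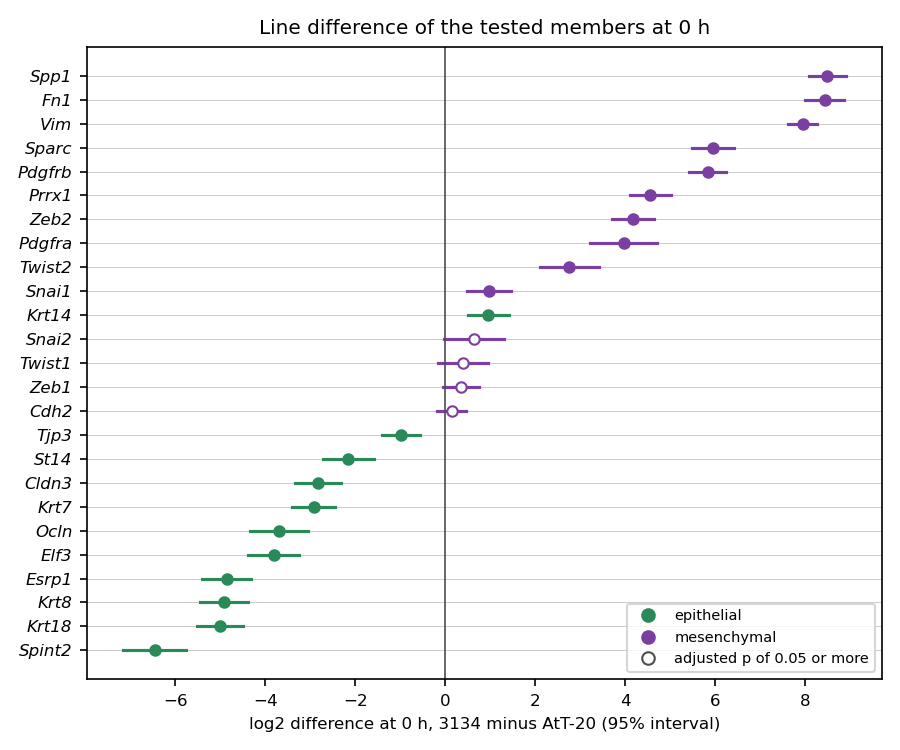
Log2 difference of 3134 minus AtT-20 at 0 h (horizontal axis) with its 95% interval from limma for each of the 25 tested genes, epithelial in green and mesenchymal in purple, where an open circle marks an adjusted p of 0.05 or more; 2 arrays per group. Differences run from −6.46 for Spint2 to 8.50 for Spp1, and Krt14 is the epithelial gene on the mesenchymal side.

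With the arrays of 0, 2 and 4 h averaged, the same comparison rested on 6 arrays per line, and 24 of the 25 tested genes passed, beside 71.9% of all tested genes. The additional genes were Cdh2 (log2 0.33 ± 0.0846, limma adjusted p = 0.00379), Zeb1 (0.31 ± 0.104, adjusted p = 0.0167) and Snai2 (0.67 ± 0.179, adjusted p = 0.00514), each higher in 3134. Twist1 missed the threshold (0.33 ± 0.147, limma adjusted p = 0.0642) and passed with the run as a block (0.0149), when all 25 did, beside 80.1% of all tested genes. Over all arrays Cdh2 lay at 10.24 to 10.50 in 3134 and 9.88 to 10.23 in AtT-20, without overlap, whereas Zeb1, Snai2 and Twist1 overlapped between the lines.

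Smooth-muscle and further mesenchymal genes were low in both lines. Acta2 and Tagln, the actin and calponin-family genes of contractile cells, lay at 5.17 to 6.30 and 4.35 to 5.61 in 3134 and at 4.30 to 5.71 and 4.74 to 5.95 in AtT-20. Cdh11, the osteoblast cadherin, lay at 4.72 to 5.48 and 4.39 to 5.32. Fbn1, the microfibril protein fibrillin-1, read 5.83 and 5.96 in 3134 and 4.49 and 4.80 in AtT-20. Of its 79 probesets, 16 reached the limit in 3134 and 8 in AtT-20. With genes below the limit added, Fbn1 passed as higher in 3134 (log2 1.25 ± 0.218, limma adjusted p = 0.000681), on values that were all below the limit. In that same fit Acta2 did not pass at 0 h (adjusted p = 0.29) and passed over 0, 2 and 4 h (0.98 ± 0.202, adjusted p = 0.00134). Of the 13 genes below the limit, the other 11 did not pass in either comparison.

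Genes beyond the 40 on related lists gave mixed directions. Of 28 other epithelial junction and polarity genes, 17 were tested at 0 h, with 10 lower and 4 higher in 3134, beside 30.3% lower and 24.3% higher among all tested genes. Lsr, a receptor of tricellular junctions, was at least 9.96-fold higher in AtT-20 (log2 −4.50 ± 0.187, limma adjusted p = 1.83e-09), and the desmosomal cadherin Dsg2 at least 3.44-fold (log2 −4.40 ± 0.207, adjusted p = 4.52e-09). The desmosomal plaque gene Pkp2 (log2 3.64 ± 0.221) and Perp (2.96 ± 0.187), a desmosome-associated membrane protein, were higher in 3134 (limma adjusted p = 3.9e-08 and 5.45e-08). Of 12 other epithelial transcription factors 4 were tested. Foxa1 (−4.58) and Grhl1 (−3.12) were lower in 3134, Gata3 (2.80) was higher, and Klf5 did not pass (−0.61 ± 0.299, limma adjusted p = 0.103).

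Of 23 other mesenchymal genes, 10 were tested, with 6 higher and 2 lower in 3134, beside the same 24.3% and 30.3% of all tested genes. The receptor tyrosine kinase Axl was at least 36.2-fold higher (log2 6.56 ± 0.184, limma adjusted p = 1.43e-10), the calcium-binding S100a4 at least 17.5-fold and the tropomyosin Tpm2 at least 3.58-fold. Tcf4, an E-protein, went the other way and was 4.31-fold higher in AtT-20 (log2 −2.11 ± 0.178, limma adjusted p = 7.46e-07). Among 5 catenins, which tie cadherins to actin, Ctnna1 was 2.7-fold higher in 3134 and the neural Ctnnd2 at least 2.78-fold higher in AtT-20. Ctnnb1, β-catenin, did not pass at 12.03 against 11.80 (log2 0.23 ± 0.138, limma adjusted p = 0.188), nor did Ctnnd1, p120-catenin, at 9.66 against 9.29 (0.36 ± 0.188, adjusted p = 0.124). Of 17 mammary markers 3 were tested and all 3 were higher in 3134, as given above, beside 24.3% of all tested genes. Gata3 and Esr1 were below the limit in AtT-20, so they too entered the test through 3134.

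Exon arrays also allow a look at whether the probesets of a gene differed between the lines by unequal amounts, the readout used for alternative exon use. Only genes at or above the limit in both lines at 0 h are described, since a probeset at background cannot follow a change. Of the 5 such genes in the list, Krt8, Snai2 and Cdh2 passed limma's diffSplice test over 0, 2 and 4 h, beside 43.2% of the 7591 genes so measured. Because diffSplice assumes 1 spread for all probesets of a gene, a test with its own spread for each probeset was added after the data were seen. Krt8 (adjusted p = 0.000136) and Snai2 (0.00784), 1 of whose shifted probesets was below the limit on every AtT-20 array (4.02 to 6.21), passed it as well and Cdh2 did not (0.169), beside 33.3% of genes by that test and 29.3% by both tests. With 5 genes, that share is read as near the background. The level of Krt8 in 3134 lies close to the limit. Of its 3 most shifted probesets, 1 read 2.79 to 3.88 and another 3.84 to 4.97 in 3134. Both were below the limit on every array of that line, so their differences are only bounds. The remaining one, shifted the other way, read 7.35 to 9.5 in 3134. The part of these low values in the exon result of Krt8 was not tested.

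A separate list of 9 genes was drawn up for exon control by Esrp1 and Esrp2, and whether each is a target was not checked. Of the 9, 6 were measured in both lines, and 5 of the 6 passed both tests, beside the same 29.3%. They were Ctnnd1, Enah, Slk, Arhgef11 and Nf2; Rbm47, itself an epithelial RNA-binding gene on that list, did not pass (diffSplice adjusted p = 0.0829). In Ctnnd1, whose gene level did not pass at 0 h, 1 of 22 probesets stood apart. That probeset read 7.14 to 8.67 (median 8.03) over the 8 arrays of 3134 and 4.31 to 5.94 (median 5.59) over the 7 of AtT-20, without overlap. It was below the limit on all 7 AtT-20 arrays, so its difference there is only a bound, and it is the 1 probeset on which the diffSplice result of Ctnnd1 rests. In Slk, a kinase of the STE20 family, 1 of 24 probesets stood apart by diffSplice over 0, 2 and 4 h. That probeset read 6.84 to 7.76 (median 7.31) in 3134 and 7.75 to 9.42 (median 8.11) in AtT-20. Its relative value was −1.76, whereas the gene as a whole was 1.78-fold higher in 3134 at 0 h. At 0 h, 2 of the 24 probesets of Slk were higher in AtT-20. In Enah, an actin regulator of the Ena/VASP family, the probeset with the largest shift read 7.55 to 8.75 (median 7.91) in 3134 and 8.20 to 9.08 (median 8.97) in AtT-20, a relative value of −3.27. The whole Enah gene was 4.04-fold higher in 3134 at 0 h. The genes that passed were tested on 20 to 41 probesets and Rbm47 on 7. Genes of other related lists gave both outcomes. Itga6 (28 probesets) and Tjp1 (35) also passed both tests, and Ctnna1 (21) and Ctnnb1 (17) passed neither. The number of probesets per gene was not matched to that of the other genes, and which exon each probeset covers was not looked up.

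Cd44 and Fgfr2, both on that list, differed in level. The hyaluronan receptor Cd44 was at least 2.84-fold higher in 3134 (log2 4.15 ± 0.299, limma adjusted p = 1.76e-07), and Fgfr2, a fibroblast growth factor receptor, at least 2.05-fold higher in AtT-20 (−2.04 ± 0.213, adjusted p = 5.02e-06). Each was below the limit in the other line, so their exons could not be compared.

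Few genes passed in the dexamethasone comparisons, on the list and among all tested genes alike. In 3134, 1 of the 25 tested genes passed at 4 h, Pdgfrb, which fell, beside 1.91% of all tested genes in either direction and 0.554% lower. None passed at 2 h or at 8 h by limma, beside 1.23% and 2.19%, with 1 gene at an unadjusted p under 0.05 at each of these times. In AtT-20 none passed at 2, 4 or 8 h, beside 0.0907%, 0.171% and 0.121%, with 0, 1 and 2 genes at an unadjusted p under 0.05. With 25 genes, these counts are read as near the shares of all tested genes. All comparisons of a line share its 0 h arrays. The AtT-20 comparison at 8 h rests on 1 array, whose spread is assumed to be like that of the other groups.

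Pdgfrb in 3134 read 10.89 and 10.80 at 0 h, then 10.22 and 9.95 after 2 h, 9.71 and 9.78 after 4 h and 10.69 and 10.50 after 8 h. Both arrays at 2 h and at 4 h lay below both arrays at 0 h, and those at 8 h lay just under them. Pdgfrb fell by 1.10 on the log2 scale at 4 h (SE 0.189, 95% interval −1.51 to −0.69, limma adjusted p = 0.0093, and 0.000521 with the run as a block). At 2 h its difference was −0.76 ± 0.189 (limma adjusted p = 0.107, and 0.0107 with the block), and at 8 h −0.25 (adjusted p = 0.722). For the mean of 2 and 4 h it was −0.93 ± 0.164 (limma adjusted p = 0.00948), the only tested gene of the 25 to pass there, beside 2.08% of all tested genes. Dropping any 1 of the 4 arrays compared at 4 h, each of which left a single array in a group, ended the call. The adjusted p was then 0.0884 or 0.0623 without the first or second 4 h array and 0.106 or 0.0773 without the first or second 0 h array. In AtT-20 Pdgfrb stayed below the limit at 4.60 to 5.15 on all 7 arrays. The response of Pdgfrb in 3134 less that in AtT-20 was −0.78 ± 0.232 and did not pass (limma adjusted p = 0.301, and 0.0363 with the block). No tested gene of the 25 passed for this difference, beside 0.645% of all tested genes, and 1 had an unadjusted p under 0.05. With the block, Pdgfrb was the 1 gene of the 25 that passed for this difference and at 2 h, beside 2.73% and 3% of all tested genes. None passed for the mean of 2 and 4 h in AtT-20, beside 0.181%, with 1 gene at an unadjusted p under 0.05.

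**Figure D3:**
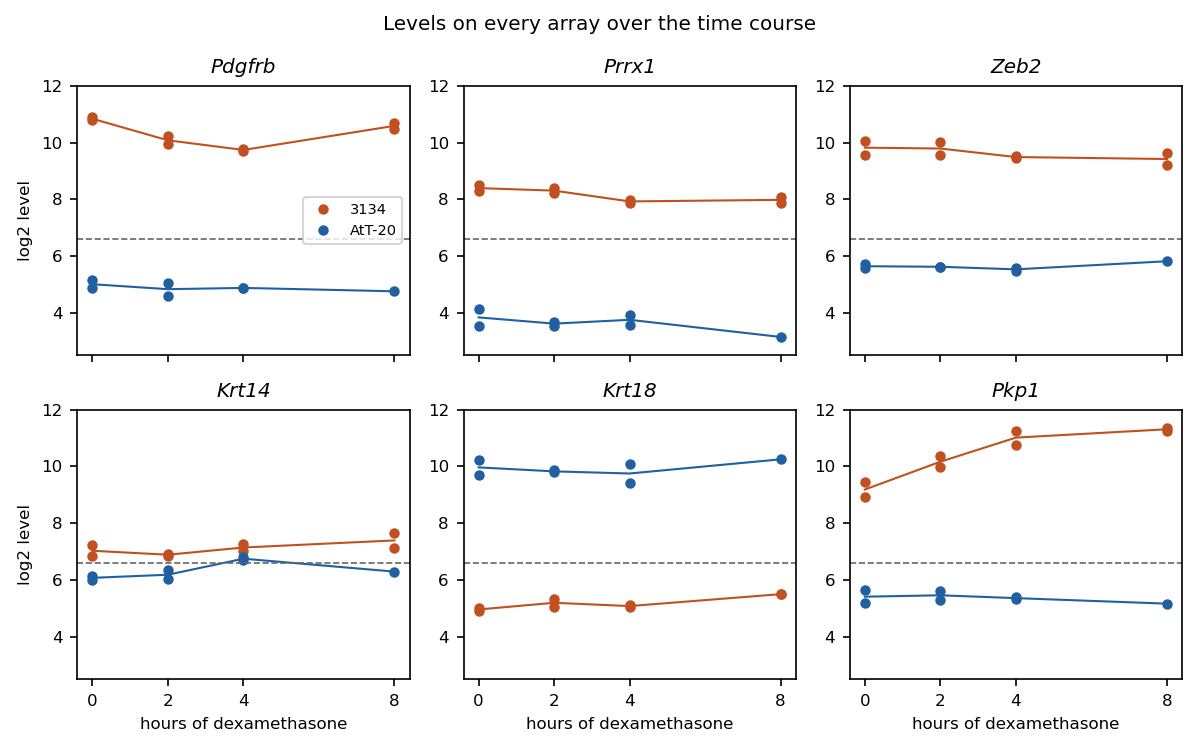
Log2 level (vertical axis) against hours of dexamethasone for Pdgfrb, Prrx1, Zeb2, Krt14, Krt18 and Pkp1, where a point is 1 array of 3134 (orange) or AtT-20 (blue), the line joins group means and the dashed line is the low-value limit of 6.59. Pdgfrb in 3134 is lowest at 4 h, at 9.71 and 9.78, and Pkp1 in 3134 is highest at 8 h, at 11.25 and 11.37.

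The other 24 tested genes did not pass at any time in either line. In 3134 the fold changes of the 11 epithelial genes ranged from −0.40 to 0.27 at 2 h, −0.31 to 0.38 at 4 h and −0.11 to 0.54 at 8 h, with medians of −0.06, 0.11 and 0.24 on the log2 scale. The 14 mesenchymal genes, Pdgfrb among them, ranged from −0.76 to 0.19, −1.10 to 0.22 and −0.42 to 0.24, with medians of −0.06, −0.10 and −0.03. Over all tested genes the medians were −0.02, −0.02 and −0.01. In AtT-20 the epithelial genes ranged from −0.32 to 0.15 at 2 h, −0.22 to 0.68 at 4 h and −0.37 to 0.53 at 8 h, and the mesenchymal genes from −0.38 to 0.30, −0.21 to 0.25 and −0.69 to 0.18. With 2 arrays against 2, the median SE of a log2 fold change was 0.215, and 0.264 for AtT-20 at 8 h, which limits how small a change these arrays could show.

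Genes with an unadjusted p under 0.05 included Prrx1 in 3134 at 4 h (−0.47, limma adjusted p = 0.568), Krt18 in 3134 at 8 h (0.54, adjusted p = 0.387) and Krt14 in AtT-20 at 4 h (0.68, adjusted p = 0.692). Krt18 stayed below the limit in 3134 at all times, and Krt14 in AtT-20 reached it at 4 h alone. With the block the counts at 4 and 8 h in 3134 were again 1 and 0, beside 5.19% and 7.9% of all tested genes. The repressors Zeb1, Zeb2, Snai1, Snai2, Twist1 and Twist2 passed at no time in either line. Neither did the epithelial genes high in AtT-20. For every gene that passed between the lines at 0 h, the arrays of the lines did not overlap at any time, as the plot of levels by array shows. In bulk RNA such as this, fewer cells of a type and less RNA per cell cannot be told apart.

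**Figure D4:**
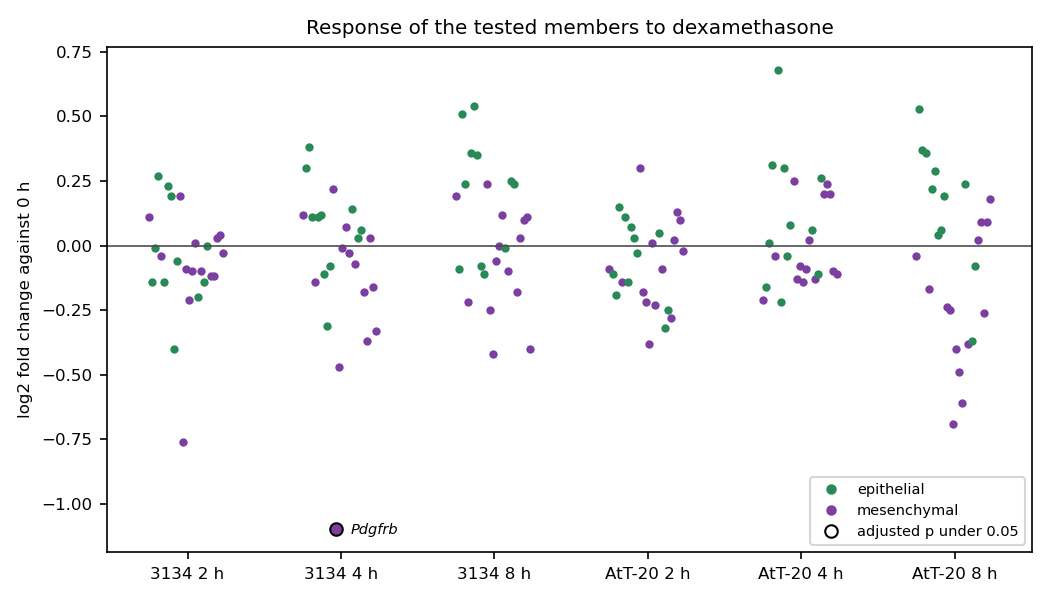
Log2 fold change against 0 h (vertical axis) of the 25 tested genes at 2, 4 and 8 h of dexamethasone in each line, 1 point per gene, epithelial in green and mesenchymal in purple, with a black ring at an adjusted p under 0.05. Pdgfrb in 3134 at 4 h, at −1.10, is the only ringed point.

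Among all genes of the related lists, Pkp1 alone passed in a response comparison. Pkp1 encodes plakophilin 1, a plaque protein of desmosomes. It read 8.93 and 9.44 in 3134 at 0 h, then 9.97 and 10.36 after 2 h, 10.77 and 11.26 after 4 h and 11.25 and 11.37 after 8 h. Every treated array lay above both 0 h arrays, and the AtT-20 arrays stayed below the limit at 5.16 to 5.63. At 4 h the rise was 1.83 ± 0.243 on the log2 scale (limma adjusted p = 0.00177), and the rise at 8 h was 2.13 ± 0.243 (limma adjusted p = 0.000562). At 2 h its difference was 0.98 ± 0.243 (limma adjusted p = 0.106, and 0.00276 with the block). The response over 2 and 4 h in 3134 less that in AtT-20 was 1.41 and did not pass (limma adjusted p = 0.0658, and 0.00123 with the block). At 0 h Pkp1 was already at least 6.03-fold higher in 3134 (log2 3.78 ± 0.243, limma adjusted p = 6.43e-08), against the direction of most epithelial genes tested.

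With the run as a block, further genes of the related lists passed in 3134, chosen here after their values were seen. At 8 h these included Perp, at 11.25 and 11.57 against 10.54 and 10.75 at 0 h (log2 0.77, limma adjusted p = 0.0133 with the block and 0.0611 without). Pkp2 was at 9.49 and 9.31 against 8.71 and 8.85 (0.62, adjusted p = 0.0298 with the block and 0.255 without, limma). The surface enzyme gene Nt5e, on the mesenchymal list, differed by 0.74 (limma adjusted p = 0.00372 with the block and 0.0662 without). Cd44 differed the other way, by −0.74 at 4 h (limma adjusted p = 0.0133 with the block and 0.46 without), as did the junction scaffold Tjp1, by −0.53 (0.0441 and 0.284).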

How the data were processed

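RNA of 15 samples was hybridised to mouse exon arrays (Affymetrix, 1 colour). The submitters' processing notes name RMA and Affymetrix Expression Console, without versions, and the deposited values are log2 signals, 1 per probeset and array. Deposited column medians differed by run: 7.83 to 8.14 and 6.76 to 7.20 in 3134, 7.51 to 7.86 and 6.93 to 7.22 in AtT-20. The 15 arrays were therefore quantile normalized, which makes levels relative. Of 228090 probesets, the 207232 with exactly 1 gene symbol were used. A gene value was the median over at least 3 probesets (15025 genes). Genes whose highest group mean reached the 40th percentile (log2 6.59) were tested, 9919 in all. The tests came from limma 3.58.1 (lmFit and eBayes on the means of 8 groups, 7 residual degrees of freedom), 2-sided, with Benjamini-Hochberg adjustment over all tested genes at 0.05. The script was tested on simulated data.

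Within each line, the serial numbers in the sample titles fall into an earlier and a later run. Deviations from group means of arrays of the same run and line correlated at 0.491 to 0.591 (9 pairs), and those of the same run number in the other line at 0.276 to 0.39 (12 pairs). The main fit held no term for the run, and a fit with the run within each line as a block was the alternative. The median SE for 2 arrays against 2 was 0.215 in the main fit and 0.153 with the block. The highest correlation between 2 arrays was 0.986, and none was taken for a repeat. Precision is limited by how few arrays there are.

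The members, the related gene lists and the tests were chosen with earlier results of these data known. All 40 members are named, with up to 4 genes of each related list (smallest p at 0 h) and any listed gene that passed in a response. Pkp1 came in by the last clause. Alternatives were the deposited scale, median centring, no filter, the mean over probesets, at least 1 probeset, the block and leaving out each array.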

Additional observations from a re-analysis of the deposited data

How the results depend on the processing

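For the 25 tested genes, both line comparisons stayed within 1.5 times their counts of called genes under every alternative run, and no log2 fold change reported for the genes named in a test changed sign. Pdgfrb was the gene behind most changes of a count. The count of called genes in 3134 became 1 at 2 h, and 1 for the difference between the lines' responses, with the mean over probesets and with the replicate block. On the deposited scale it became 0 at 4 h and 0 for the mean of 2 and 4 h. With the deposited scale and the replicate block together, added after seeing the data, it became 2 at 8 h, Prrx1 (−0.79, limma adjusted p = 0.0357) and Zeb2 (−0.83, 0.0284), while the median of all genes in that comparison moved from −0.01 to −0.37. Leaving out each array of the groups compared in turn gave 0 at 4 h, from 0 to 1 for the mean of 2 and 4 h (0 without either 0 h array of 3134, adjusted p = 0.159 and 0.105 for Pdgfrb), 21 to 22 at 0 h and 23 to 25 over 0, 2 and 4 h. Leaving out any other array kept Pdgfrb called at 4 h (adjusted p = 0.00699 to 0.015, limma). The cause was not tested.

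Of the recomputed fold changes, 466 kept their side of the threshold, 22 came to pass and 18 no longer did. At 0 h on the deposited scale Krt14, Tjp3 and Snai1 did not pass, and with the mean over probesets Cdh2 (0.47), Zeb1 (0.65) and Snai2 (1.04) did. The deposited scale moved the median of all genes at 0 h from −0.10 to 0.22, with 1039 genes higher and 940 lower in 3134 in place of 2407 and 3001, and the genes called over 0, 2 and 4 h from 7132 to 3652. With the block, 298, 515 and 784 genes passed in 3134 at 2, 4 and 8 h in place of 122, 189 and 217, and 32, 85 and 44 in AtT-20 in place of 9, 17 and 12. The block changed the calls of Zeb1, Snai2, Twist1, Pdgfrb and Pkp1, as given above, and no other call of the 40 genes; among the related genes it added, with others, Klf5 at 0 h (limma adjusted p = 0.019) and Perp, Pkp2, Nt5e, Cd44 and Tjp1 in 3134. Values below the limit, log2 6.59, cannot be ordered.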
